A study of Mus musculus with 6 samples.

Results

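Bulk RNA sequencing of RAW264.7, a macrophage-like cell line of the mouse, was read for 10 genes of nucleoside salvage and purine breakdown. They are Upp1, Uck1, Uck2, Ada, Ampd3, Pnp, Hprt, Gda, Uox and Urah, 10 of 55401 genes in the deposited count table. They were found by gene symbol. The list was chosen by pathway with the count differences between MoS2 and PBS libraries already known, so those differences are given as a description with no test. The cells were wild type in both groups. In all, 3 libraries came from cells given phosphate-buffered saline (PBS) and 3 from cells given molybdenum disulfide (MoS2), a layered metal sulfide, at 6.25 µg/ml, and neither the duration nor the number of separate cultures is given in the sources used here. All replicates are of 1 cell line, and p-values for other genes below measure only the spread between these libraries, which may be technical.

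Nucleosides released from nucleic acids can be recycled or burned. Salvage enzymes put a phosphate or a ribose phosphate back onto a nucleoside or base, while phosphorylases and deaminases take the nucleoside apart. In mammals purine breakdown runs from adenosine and guanosine through hypoxanthine and guanine to xanthine and urate. Mice are among the mammals with enzymes that convert urate to allantoin, mainly in liver. Macrophages take up nucleic acids from engulfed cells, and purine nucleosides outside the cell act on their receptors.

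Total counts were 15767618 to 18412762 per library. The 10 most abundant genes took 5.25 to 5.64% of the counts in PBS libraries and 18.9 to 19.6% in MoS2 libraries. The choice of scaling therefore matters. Levels below are CPM, counts relative to library size, with TMM factors, which set the bulk of genes equal between libraries, and scaling by library totals alone lowers log2 changes by a median of 0.77. Macrophage identity genes were counted in all libraries except Mertk, with 2 counts in each group, and Mrc1, with 35 counts with PBS and 2 with MoS2. They had Lyz2 as the highest of the 10 markers and a summed marker level of 7376 to 7587 CPM with PBS and 4908 to 5188 CPM with MoS2. Of the 9 markers tested, 2 rose and 5 fell by edgeR's quasi-likelihood test, Csf1r among the latter. Of all tested genes 38.3% rose and 42.4% fell. Summed markers of T cells, B cells, neutrophils, fibroblasts, epithelium and hepatocytes did not exceed 0.658 CPM in any library.

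The group holds 2 genes with far larger differences than the rest, the uridine phosphorylase Upp1 and the hydroxyisourate hydrolase Urah, both close to silent with PBS and readily counted with MoS2. The 250 bases before their annotated starts are shown because these are the regions that would carry promoter elements, with those of Gda, the member with the lowest fold change, for comparison. The Gda and Urah windows lie before RefSeq starts 784 and 120 bases inside the annotated genes. The Gda window therefore lies wholly, and the Urah window partly, within its annotated gene. All 10 members matched RefSeq (GRCm38.p6), and where a gene had several starts the one nearest to the gene's first base in GENCODE M21 was taken. The Upp1 sequence is chr11:9117853-9118102 on the plus strand, that of Urah chr7:140834888-140835137 on the plus strand, and that of Gda chr19:21472662-21472911 on the minus strand. Capitals mark any match, on either strand, to 7 motifs: AP-1 (TGANTCA), CRE (TGACGTCA), a C/EBP-ATF element (TGATGCAA), the antioxidant element (TGACNNNGC), the E-box (CACGTG), an NF-kB motif and the GC box (GGGCGG).
Upp1: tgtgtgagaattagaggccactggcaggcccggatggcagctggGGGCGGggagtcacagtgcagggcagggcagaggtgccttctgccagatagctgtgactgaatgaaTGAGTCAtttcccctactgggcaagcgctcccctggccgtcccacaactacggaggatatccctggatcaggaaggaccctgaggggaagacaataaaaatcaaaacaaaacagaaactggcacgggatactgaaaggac
Urah: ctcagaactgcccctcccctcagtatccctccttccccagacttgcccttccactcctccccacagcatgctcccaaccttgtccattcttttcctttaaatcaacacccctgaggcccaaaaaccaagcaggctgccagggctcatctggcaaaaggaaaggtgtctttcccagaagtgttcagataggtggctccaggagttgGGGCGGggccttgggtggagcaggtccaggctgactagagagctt
Gda: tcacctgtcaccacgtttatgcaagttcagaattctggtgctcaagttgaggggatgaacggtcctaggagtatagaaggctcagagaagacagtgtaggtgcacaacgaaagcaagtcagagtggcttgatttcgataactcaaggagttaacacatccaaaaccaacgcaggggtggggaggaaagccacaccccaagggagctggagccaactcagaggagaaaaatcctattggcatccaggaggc
The Upp1 sequence held 1 AP-1 match, TGAGTCA, that began 140 bases before the start, and 1 GC box. AP-1 letters occurred in 6.75% of 32851 such windows. Among the windows chosen for the 10 members, that of Upp1 alone held an AP-1 match. The Pnp and Uox windows in this comparison lay before starts 13221 and 26723 bases inside the annotated genes. The Urah sequence held a GC box 45 bases before the start, a motif found in 32.7% of windows, and none of the other 6. No motif of the 7 was found in the Gda window. These matches are descriptions of letters and were not tied to any measured binding.

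Pyrimidine nucleosides come first. Upp1 splits uridine into uracil and ribose 1-phosphate (ENSMUSG00000020407.13, GRCm38 chromosome 11, 9118103 to 9136170). It had 1, 1 and 2 counts in the PBS libraries and 417, 434 and 529 in the MoS2 libraries. Its levels were 0.0434, 0.0434 and 0.0899 CPM with PBS against 33.3, 35.2 and 38.7 CPM with MoS2. Every MoS2 library lay far above every PBS library, and the PBS level was at or below that of 3 counts in each library. The ratio of summed counts was 612, with a 95% counting interval (exact) of 238 to 2249. With library totals it was 358, from 139 to 1315. Counting intervals cover counting error only. In bulk RNA, a change in the share of cells that express a gene and a change in RNA per cell cannot be told apart. No other annotated gene shared its exon bases, and the protein-coding neighbours Gm11992 and Abca13, 48747 and 55772 bases away, had 2 and 24 counts with PBS and 0 and 38 with MoS2.

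Uck1 and Uck2 are the kinases that phosphorylate uridine and cytidine, the salvage route that competes with Upp1 for uridine. Uck2 (ENSMUSG00000026558.13, GRCm38 chromosome 1, 167222883 to 167285320) had 289, 293 and 289 CPM with PBS and 327, 303 and 327 CPM with MoS2. Uck1 (ENSMUSG00000002550.16, GRCm38 chromosome 2, 32255002 to 32260159) had 22.4, 28.1 and 23.8 CPM with PBS and 39.3, 37.5 and 34.6 CPM with MoS2. On this scale the groups did not overlap for either kinase, and both were higher with MoS2, with a log2 fold change of 0.13 ± 0.06 (approximate SE) for Uck2 and 0.58 ± 0.10 for Uck1. With library totals both signs turned, to -0.64 and -0.19, and the Uck1 libraries of both groups then overlapped. The direction of the uridine kinases thus depends on the scaling.

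Ratios of 2 genes within a library do not depend on its scaling, though they still carry the trend with gene length. Per kilobase of exon, Uck2 stood to Uck1 at 6.48, 5.25 and 6.13 with PBS and at 4.18, 4.06 and 4.76 with MoS2. Uck2 was the more abundant in each library, by a smaller factor with MoS2. The fitted log2 change of this ratio was -0.45, and -0.17 with the length trend removed. Upp1 stood to Uck1 at 0.00340 ± 0.00168 with PBS and at 1.36 ± 0.194 with MoS2 (SD, n = 3). Per kilobase the phosphorylase transcript thus went from a trace to above the level of Uck1. In counts not divided by length it was above Uck1 in MoS2 replicate 3 only.

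**Figure D1:**
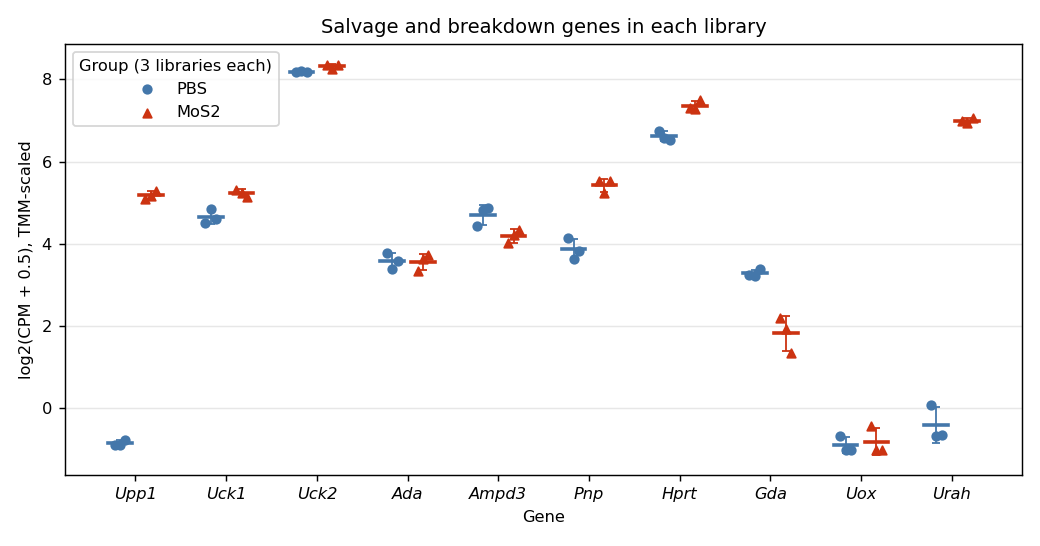
Level of each of the 10 genes on the vertical axis as log2(CPM + 0.5) with TMM scaling, for 3 PBS libraries (circles) and 3 MoS2 libraries (triangles), with the mean as a line and the SD as a bar. Upp1 and Urah sit near the bottom with PBS and far above it with MoS2, Gda is lower with MoS2, and Ada and Uox overlap.

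Adenosine handling was represented by Ada and Ampd3. Ada deaminates adenosine and deoxyadenosine (ENSMUSG00000017697.3, GRCm38 chromosome 2, 163726584 to 163750239), and its loss causes immune deficiency. Its levels were 13.2, 10.0 and 11.4 CPM with PBS and 9.58, 11.8 and 12.7 CPM with MoS2. The groups overlapped, with a log2 fold change of -0.02 ± 0.15. With library totals it was -0.80, and the groups did not overlap. Ampd3, an AMP deaminase isoform best known from erythrocytes (ENSMUSG00000005686.17, GRCm38 chromosome 7, 110768206 to 110812405), had 21.1, 28.0 and 28.8 CPM with PBS and 15.6, 18.2 and 19.6 CPM with MoS2. All 3 MoS2 libraries lay below all 3 PBS libraries, with a log2 fold change of -0.54 ± 0.13, or -1.32 with library totals. Its exons overlap those of Rnf141 on the opposite strand, over 195 bases, and the counting of such reads is not stated.

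Long genes were lower with MoS2 as a whole, and this touches Ampd3, whose exons sum to 5627 bases. The length trend of the libraries alone gave -0.30 at that length, and with it removed Ampd3 had -0.25 ± 0.12. The other AMP deaminase in these cells, Ampd2, had 257 ± 3.29 CPM with PBS and 212 ± 3.89 CPM with MoS2 (SD, n = 3). Per kilobase Ampd3 stood to Ampd2 at 0.0761, 0.102 and 0.103 with PBS and 0.0695, 0.0782 and 0.0851 with MoS2, ranges that overlap.

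Pnp cleaves inosine and guanosine to hypoxanthine and guanine (ENSMUSG00000115338.2, GRCm38 chromosome 14, 50931082 to 50965237). It had 17.1, 11.8 and 13.8 CPM with PBS and 45.4, 37.4 and 45.3 CPM with MoS2. The groups were well separated, with a log2 fold change of 1.59 ± 0.13. The difference kept its sign with library totals, at 0.81, and with the length trend removed, at 1.77. The neighbouring copy Pnp2 lies inside the annotated span of Pnp and had 24 counts with PBS and 16 with MoS2, against 972 and 1649 for Pnp. Reads that fit both copies could be split between them, and Gm49342 shares 718 exon bases with Pnp, so the Pnp count is uncertain to that extent. Per kilobase Pnp stood to Pnp2 at 52.4, 7.21 and 20.4 with PBS and at 113, 20.4 and 49.4 with MoS2, which overlap. Pip4p1, which starts 226 bases away on the opposite strand, had a log2 change of -0.98.

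Because Pnp acts on the product of Ada, their ratio was followed per kilobase within each library. Pnp stood to Ada at 0.650, 0.590 and 0.608 with PBS and at 2.39, 1.59 and 1.80 with MoS2. Per kilobase the order of the pair was thus inverted, with Ada the higher in each PBS library and Pnp in each MoS2 library. In counts not divided by length Pnp was above Ada in each library, at 394, 271 and 307 against 305, 231 and 254 with PBS. The crossing of 1 therefore rests on the exon lengths, 3979 and 2002 bases, while the rise of the ratio does not depend on this divisor. The ratio of Adk, which returns adenosine to AMP and competes with Ada, to Ada also crossed 1 per kilobase. Adk stood to Ada at 0.651, 0.901 and 0.778 with PBS and at 2.18, 1.79 and 1.64 with MoS2. In counts not divided by length Adk too was above Ada in each library, at 846, 886 and 842 with PBS. Here again the ratio rose, and its crossing of 1 rests on the exon lengths.

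Hprt returns hypoxanthine and guanine to nucleotides (ENSMUSG00000025630.8, GRCm38 chromosome X, 52988137 to 53021659) and is often used as a reference gene. It had 107, 94.5 and 91.4 CPM with PBS and 158, 154 and 180 CPM with MoS2. On this scale the groups did not overlap, and the log2 fold change was 0.75 ± 0.08. With library totals the groups overlapped and the change was -0.03 ± 0.07. Hprt has the shortest exon length of the 10 genes, 1289 bases, where the length trend alone gave 0.52, and with the trend removed its change was 0.23. Per unit length it was the most abundant of the 10 in each library, at 322 ± 22.1 TPM, a length-scaled share of the library, with PBS and 229 ± 9.12 TPM with MoS2 (SD, n = 3).

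Gda deaminates guanine to xanthine, which takes the base out of reach of Hprt (ENSMUSG00000058624.13, GRCm38 chromosome 19, 21391307 to 21473445). It had 205, 204 and 222 counts with PBS and 51, 41 and 28 with MoS2, or 8.89, 8.86 and 9.98 CPM against 4.07, 3.32 and 2.05 CPM. Every MoS2 library lay below every PBS library, and MoS2 replicate 3 was the lowest. The log2 fold change was -1.56 ± 0.21, with -2.33 by library totals and -1.27 with the length trend removed. Per kilobase, Hprt stood to Gda at 58.1, 51.6 and 44.3 with PBS and at 188, 224 and 425 with MoS2. The MoS2 libraries spread widely, with replicate 3 the highest. With the length trend removed the fitted change of this ratio went from 4.96-fold to 2.84-fold.

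**Figure D2:**
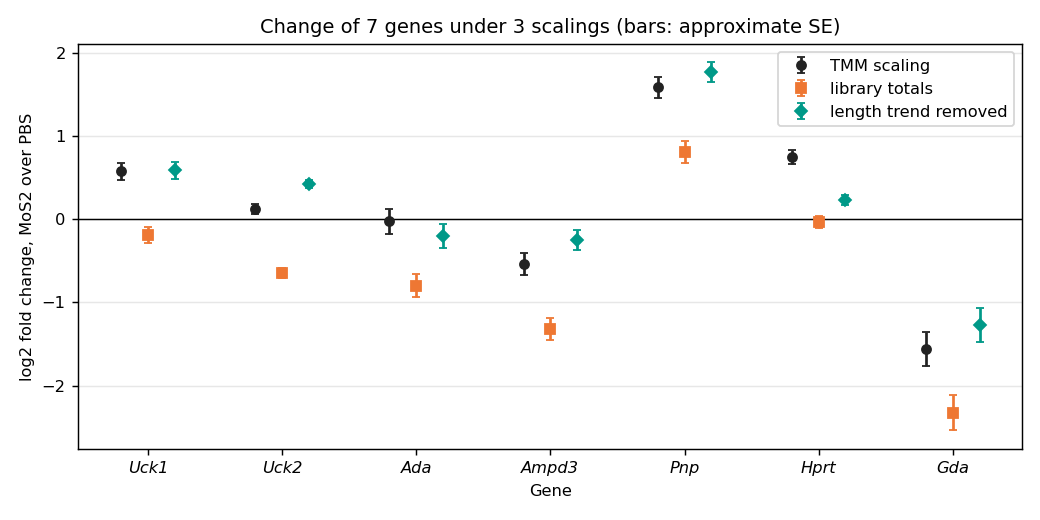
Log2 fold change, MoS2 over PBS, of 7 genes under TMM scaling (circles), library totals (squares) and TMM with the length trend removed (diamonds), with approximate SE as bars and without Upp1 and Urah, which are off this scale. Pnp stays above 0 and Gda and Ampd3 below 0 under all 3, while Uck1, Uck2 and Hprt change sign with library totals.

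Uox oxidizes urate to hydroxyisourate (ENSMUSG00000028186.14, GRCm38 chromosome 3, 146570426 to 146632305). It had 3, 0 and 0 counts with PBS and 3, 0 and 0 with MoS2, and was the only member too low to be tested. The ratio of summed counts was 1.77, with a counting interval of 0.238 to 13.2. A difference was not detectable at this depth. Libraries with 0 counts allow a level of up to 0.130 and 0.135 CPM with PBS and 0.243 and 0.219 CPM with MoS2.

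Urah hydrolyses the product of Uox, the next step from urate to allantoin (ENSMUSG00000025481.12, GRCm38 chromosome 7, 140835018 to 140837966). It had 13, 3 and 3 counts with PBS and 1595, 1518 and 1801 with MoS2. Its levels were 0.564, 0.130 and 0.135 CPM with PBS and 127, 123 and 132 CPM with MoS2. PBS replicate 1 held most of the PBS counts, and the groups were far apart with or without it. The ratio of summed counts was 459 (counting interval 293 to 763), 268 with library totals, and 962 (442 to 2624) without PBS replicate 1.

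Reads at Urah come from a region with little else transcribed. The nearest protein-coding genes, Zfp941 and Scgb1c1, had 0 and 1 counts with PBS and 0 with MoS2. An antisense transcript, C330022C24Rik, shares 177 exon bases with Urah (12.4% of its exon length) and had 0 counts with PBS and 28 with MoS2. Without a stated strand setting, reads in those bases cannot be assigned to one of the pair. The steps on either side of Urah did not share its pattern: Uox had the 3 and 3 counts given above, and Urad, which completes allantoin synthesis, had 0 counts in all 6 libraries. Allc, which acts on the next product, was also at 0.

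Length-scaled levels put the 10 genes in order within a library. With PBS the order by mean TPM was Hprt (322), Uck2 (226), Uck1 (38.3), Ada (24.5), Ampd3 (19.6), Pnp (15.2), Gda (6.31), Urah (0.817), Upp1 (0.128) and Uox (0.0363). Ampd3 and Pnp changed places in PBS replicate 1, and Upp1 and Uox lay within their spread of each other. With MoS2 the order was Hprt (229), Urah (161), Uck2 (105), Upp1 (32.8), Uck1 (24.4), Pnp (19.3), Ada (10.2), Ampd3 (5.69), Gda (0.918) and Uox (0.0290), the same in each library. Urah thus moved to the second place and Upp1 to the fourth, ahead of Uck1. TPM values of a gene are not compared between groups here, since they carry the library composition with them.

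A place among all genes with a count, by TPM within the library, also needs no scaling between libraries, but was not corrected for the length trend. Upp1 went from percentiles of 3.72 to 11.0 with PBS to 83.5 to 86.2 with MoS2, and Urah from 18.0 to 30.8 to 96.4 to 96.6. Pnp stood at 56.7 to 60.3 with PBS and 75.1 to 79.0 with MoS2, and Gda at 44.3 to 49.4 and 31.4 to 34.9. Uck1 stood at 72.8 to 78.9 with PBS and 80.5 to 81.1 with MoS2, and Uck2 at 96.4 to 96.9 and 94.5 to 94.8. The uridine kinases thus separated in opposite directions on this measure. Hprt stood between 97.3 and 97.9 in all 6 libraries. Ada and Ampd3 overlapped between the groups on this measure, the latter at 57.7 to 66.0 with PBS and 54.1 to 60.8 with MoS2.

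**Figure D3:**
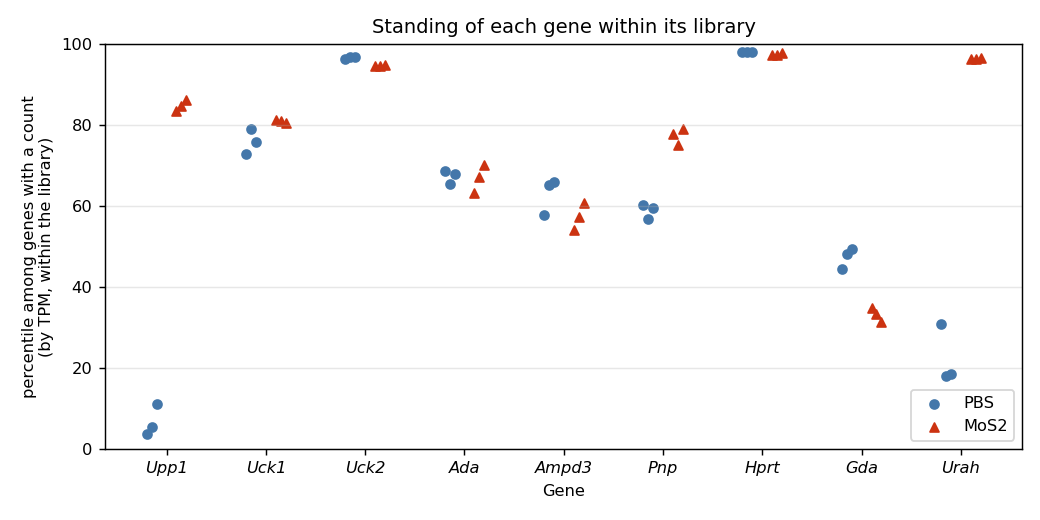
Percentile of each gene, by TPM, among the genes with at least 1 count in the same library, for 3 PBS (circles) and 3 MoS2 (triangles) libraries. Upp1 and Urah move from the lower part to 83.5 or above, Pnp and Uck1 move up, Gda and Uck2 move down, and Hprt stays at 97.3 to 97.9.

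Counted over the 9 members that passed the filter on low counts, the groups did not overlap in 8 with TMM scaling and in 7 with library totals. Over all 12972 tested genes this was so for 81.9% and 86.6%. With TMM 6 members were higher and 2 lower, against 38.8% and 43.1% of all genes, and with library totals 3 were higher and 4 lower, against 18.3% and 68.3%. Since the members were chosen with this contrast known, nothing is read from the count. The median log2 fold change of the 9 was 0.58 with TMM and -0.19 with library totals, against -0.08 and -0.85 over all tested genes. By distance of log2(CPM + 0.5) profiles over the 6 libraries, each taken relative to its PBS mean, the genes nearest to Upp1 were Ccl2 (0.247), Id1 (0.400) and Ccl3 (0.661). Those nearest to Urah were Ptgs2 (0.505), Cxcl2 (1.49) and Hbegf (1.72). Nearest to Gda were 4833418N02Rik (0.149), Cbx2 (0.270) and Mgme1 (0.290). A small distance need not mean a like fold change. In the order named, log2 changes were 10.63, 6.54 and 5.65 beside 9.09 for Upp1. They were 7.29, 8.29 and 7.20 beside 8.80 for Urah, and -2.59, -1.66 and -1.40 beside -1.56 for Gda. With PBS, Upp1 and Urah have mean levels of 0.0589 and 0.276 CPM, below the added 0.5, so the added value bears on their size on this scale and on which genes lie nearest.

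**Figure D4:**
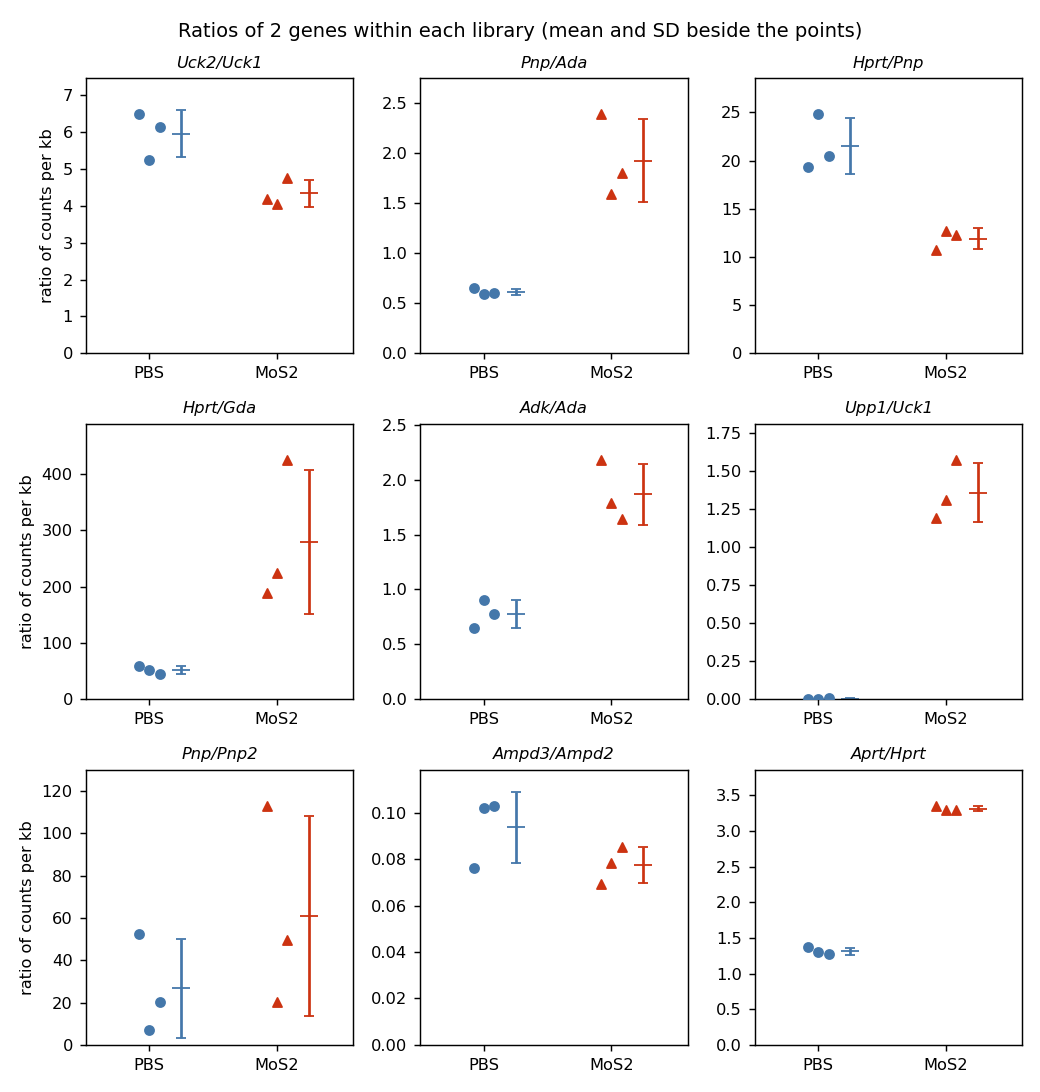
Ratio of counts per kilobase of 2 genes within each library, for 3 PBS (circles) and 3 MoS2 (triangles) libraries, with mean and SD beside the points and each axis starting at 0. All 9 ratios computed are shown: the groups overlap in Pnp/Pnp2 and Ampd3/Ampd2 and not in the other 7, and Pnp/Ada and Adk/Ada lie below 1 with PBS and above 1 with MoS2. In counts not divided by length Pnp/Ada and Adk/Ada lie above 1 in every library.

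The rest of the nucleotide network was taken from 8 lists of 96 other genes, of which 79 passed the filter on low counts. By edgeR's quasi-likelihood test with Benjamini-Hochberg adjustment, 41 of the 79 rose and 26 fell at an adjusted p under 0.05, 84.8% in all. Over all genes 80.7% were called, 38.3% higher and 42.4% lower. By library totals the split was 13 higher and 49 lower, against 18.0% and 67.7% of all genes and 85.7% called in all. The direction of many genes in these lists therefore turns with the scaling. The first value given for a gene or list is from TMM.

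In purine salvage 10 of 14 tested genes rose and 3 fell, 71.4% and 21.4% against 38.3% and 42.4% of all tested genes. The median log2 fold change was 0.77. By library totals 5 rose and 4 fell, 35.7% and 28.6% against 18.0% and 67.7%, and the median was 0.0. Aprt, the adenine counterpart of Hprt, rose from 161 ± 20.1 to 680.1 ± 55.4 CPM, a log2 change of 2.08 ± 0.09 (edgeR adjusted p = 9.7e-11) and 1.30 with library totals. Aprt stood to Hprt, per kilobase, at 1.37, 1.30 and 1.27 with PBS and at 3.35, 3.29 and 3.29 with MoS2. The groups did not overlap, and the spread within each was far smaller than the gap between them. Ahcy, which splits adenosylhomocysteine into adenosine and homocysteine, rose by 1.69 ± 0.07 and the adenosine kinase Adk by 1.25 ± 0.07, with 0.92 and 0.47 by library totals. Dck, the deoxycytidine kinase that also salvages purine deoxynucleosides, fell from 68.4 ± 1.27 to 26.8 ± 1.12 CPM (log2 change -1.35 ± 0.07, and -2.12 with library totals).

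Pyrimidine salvage had 8 genes higher and 4 lower of 14, 57.1% and 28.6% against 38.3% and 42.4% of all tested genes. The median was 0.40. With library totals 2 of the 14 were higher and 7 lower, against 18.0% and 67.7% of all tested genes. The median was then -0.37, against -0.85 over all tested genes. Tk2, the mitochondrial thymidine kinase, fell from 30.2 ± 1.87 to 9.61 ± 0.510 CPM. The nucleoside diphosphate kinase Nme1 and the dCTP pyrophosphatase Dctpp1 rose by 1.41 ± 0.10 and 1.39 ± 0.11, or 0.64 and 0.61 with library totals. With the length trend removed Dctpp1 had 0.40. Upp2, the paralog of Upp1, had 74 counts with PBS and 58 with MoS2, and its log2 change of 0.47 ± 0.34 did not pass the test (edgeR adjusted p = 0.22). It was -0.30 with library totals, and 0.78 with the length trend removed (edgeR adjusted p = 0.048). The cytidine deaminase Cda rose by 1.08 ± 0.25 from 2.36 CPM, a call lost with library totals (0.31, edgeR adjusted p = 0.25) and with the length trend removed (0.40, edgeR adjusted p = 0.14). Cmpk1, the kinase that follows Uck1 and Uck2, and Uckl1, their relative, had 0.63 and 0.56 with TMM and -0.14 and -0.21 with library totals.

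The products of Upp1 lead to base breakdown and to sugar phosphates. Of 4 genes of pyrimidine breakdown only Dpys was tested, which opens the ring of dihydrouracil. It rose from 0.891 ± 0.171 to 9.81 ± 1.50 CPM, a log2 change of 3.45 ± 0.22 (edgeR adjusted p = 5.1e-09) and 2.68 with library totals. Dpyd, the enzyme that reduces uracil in the step before, had 0 counts in all libraries, and Upb1, the step after, had 1 with PBS and 0 with MoS2. Both were picked out after their counts were seen. Among genes that handle pentose phosphates 5 of 7 rose, 71.4% against 38.3% of all tested genes, and 0 fell, against 42.4%. The median was 0.92. With library totals 3 rose and 2 fell, 42.9% and 28.6% against 18.0% and 67.7%, and the median was 0.15. Pgm2, which converts ribose 1-phosphate to ribose 5-phosphate, rose from 19.6 ± 1.48 to 74.8 ± 2.10 CPM, and the deoxyribose-phosphate aldolase Dera from 19.2 ± 2.32 to 64.2 ± 3.07 CPM. Their log2 changes of 1.94 and 1.74 were 1.16 and 0.97 with library totals. Transketolase, Tkt, rose by 1.11 ± 0.06 (0.34 with library totals), and the transaldolase Taldo1 by 0.92 ± 0.07 (0.15, no longer called).

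In purine breakdown 2 of 13 tested genes rose and 6 fell, median -0.27. The 6 that fell are 46.2% of the list, near the 42.4% of all tested genes, and the 2 that rose are 15.4%, against 38.3%. The median was 0.02 with the length trend removed, with 3 up and 5 down. By library totals 0 were up, against 18.0% of all tested genes, and 12 down, 92.3% against 67.7%. The median was then -1.05, against -0.85 over all tested genes. Xdh, which makes xanthine and urate, fell from 29.0 ± 0.210 to 11.5 ± 0.302 CPM, with no overlap and a log2 change of -1.33 ± 0.09 (edgeR adjusted p = 1.3e-08). The nucleotidase Nt5c2, which acts on IMP and GMP, had -0.88 ± 0.09 and the adenosine deaminase-like Adal -1.09 ± 0.17. Ampd2 had -0.27 ± 0.06, and 0.02 with the length trend removed. Samhd1, a dNTP hydrolase of myeloid cells, rose by 0.50 ± 0.06, which became -0.27 with library totals. Ampd1, the muscle isoform, had 5 counts with PBS and 1 with MoS2.

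Among 7 transporters tested 3 rose and 4 fell, 42.9% and 57.1% against 38.3% and 42.4% of all tested genes, with a median of -0.39. Library totals gave 1 and 5, 14.3% and 71.4% against 18.0% and 67.7%, with a median of -1.17. The 3 equilibrative nucleoside transporters tested fell. Slc29a3, the lysosomal one, went from 19.4 ± 1.16 to 5.82 ± 1.03 CPM, a log2 change of -1.74 ± 0.14 (edgeR adjusted p = 4.7e-08). Slc29a2 and the main plasma membrane transporter Slc29a1 had -1.75 ± 0.19 and -0.59 ± 0.07. With library totals the 3 had -2.51, -2.52 and -1.37. Abcg2, an exporter of urate among other substrates, rose from 1.61 ± 0.124 to 4.59 ± 0.628 CPM (log2 change 1.51 ± 0.23, and 0.73 with library totals).

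With TMM, de novo synthesis moved in both directions, as did all tested genes. Of 13 purine synthesis genes 7 rose and 5 fell, 53.8% and 38.5% against 38.3% and 42.4% of all tested genes. The median was 0.27, against -0.08 over all tested genes. Of 10 pyrimidine synthesis genes 5 rose and 4 fell, with a median of 0.18. With library totals both lists went mostly lower, as did all tested genes, at 18.0% higher and 67.7% lower. In that setting 1 purine synthesis gene rose and 10 fell, 7.69% and 76.9%. Of the pyrimidine synthesis genes 0 rose and 9 fell. The first enzyme of purine synthesis, Ppat, fell from 58.6 ± 1.88 to 29.5 ± 1.46 CPM, and Pfas, a later step, from 80.9 ± 4.16 to 27.9 ± 3.89 CPM. Adssl1, an adenylosuccinate synthase, had -1.12 ± 0.06. Cad, which carries the first 3 activities of pyrimidine synthesis, fell from 147 ± 6.04 to 58.4 ± 4.77 CPM (log2 change -1.33 ± 0.07, edgeR adjusted p = 1.0e-09). Impdh2, which commits IMP to guanine nucleotides, rose by 0.96 ± 0.06 and by 0.18 with library totals. The CTP synthases Ctps and Ctps2 had 0.70 and 0.60, or -0.07 and -0.17 with library totals, and the ribonucleotide reductase subunit Rrm2 had -0.38 ± 0.07.

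**Figure D5:**
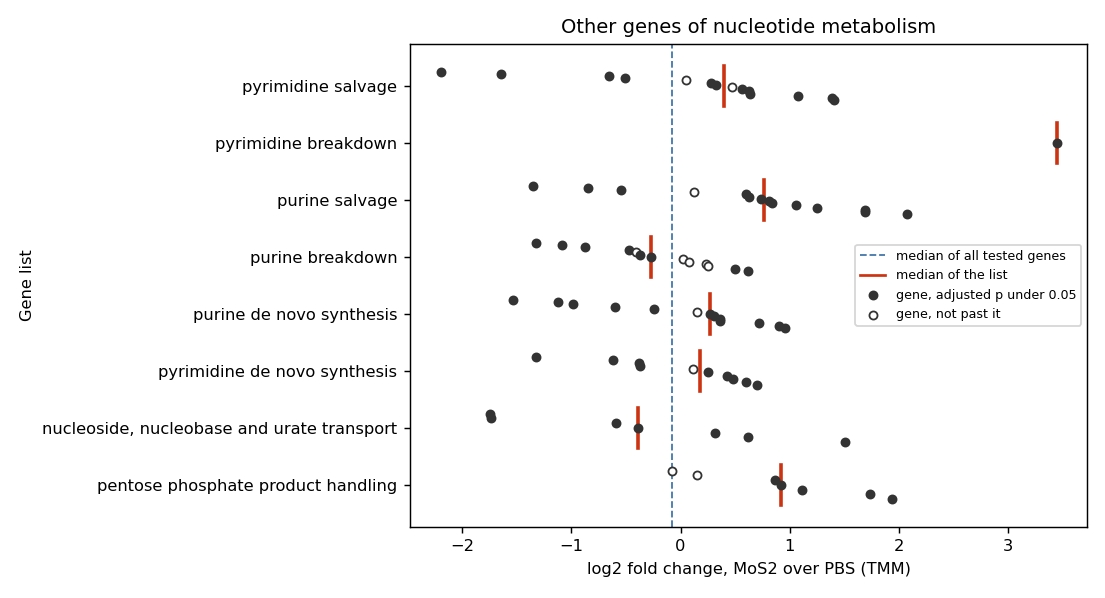
Log2 fold change, MoS2 over PBS with TMM scaling, of each tested gene in 8 lists of nucleotide metabolism, filled where edgeR's adjusted p was under 0.05, with the median of each list as a red line and that of all tested genes as a dashed line at -0.08. Purine salvage and pentose phosphate genes lie mostly to the right, with medians of 0.77 and 0.92, and transporters and purine breakdown have medians of -0.39 and -0.27. With library totals, not drawn, these medians are 0.0, 0.15, -1.17 and -1.05, against -0.85 for all tested genes.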

How the data were processed

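RNA was sequenced from 6 libraries of RAW264.7 cells. Tools named in the submitters' processing notes are featureCounts 1.6.1, HISAT2 2.1.0 and fastp 0.20.0. The deposited table holds raw read counts per gene, made by the authors and not normalized. The notes name GRCh38, a human build, but 54349 of the 55401 mouse identifiers have identical coordinates in GENCODE M21 (GRCm38), so GRCm38 is given. The labels do not say how strand and multiply mapped reads were handled. Columns were matched to samples by letter (M or c) and replicate number.

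The count test was edgeR's quasi-likelihood test (edgeR 4.0.16, R 4.3.3) on all 6 libraries, with treatment as the only term, TMM factors, Benjamini-Hochberg adjustment over all tested genes and the default filter (about 10 counts in 3 libraries), which kept 12972 genes. Approximate SE divides the log2 change by the root of the F statistic, and is least reliable where a group has few counts. TPM were computed from counts and exon lengths. Low counts are given with exact 95% counting intervals.

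The members and lists were chosen with earlier results of these data known, and the gene ratios with the counts known. All members are named, with up to 4 genes of each list by smallest adjusted p and 13 close relatives of members. Alternatives were RLE factors, library totals, no filter, 1 CPM in 3 libraries, DESeq2 1.42.0, an adjusted p under 0.01, a replicate block, each library left out, and, added after seeing the data, each library's trend on exon length as an offset.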

Additional observations from a re-analysis of the deposited data

How the results depend on the processing

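Scaling decided direction most. With library totals, 2334 genes were higher and 8786 lower (4964 and 5502 with TMM), and 13 of the other pathway genes were higher and 49 lower (41 and 26 with TMM). In that setting log2 changes turned to -0.19 for Uck1, -0.64 for Uck2, -0.03 for Hprt, -0.14 for Cmpk1, -0.27 for Samhd1, -0.07 for Ctps, -0.17 for Ctps2 and -0.21 for Uckl1. Upp2, not called with TMM, turned to -0.30. Ada, at -0.02 with TMM, had 0.02 with RLE factors, 0.08 without PBS replicate 1 and 0.09 without MoS2 replicate 1. Ampd2 turned to 0.02 with the length trend removed, which also took Hprt/Pnp from 0.559-fold to 0.345-fold. Upp1, Urah and Pnp stayed higher, and Gda and Ampd3 lower, in all alternatives run, with ranges of 8.35 to 9.44, 8.04 to 9.83, 0.81 to 1.77, -2.33 to -1.27 and -1.32 to -0.25. The calls over all genes were 9465 at an adjusted p under 0.01, 10550 with DESeq2, and 10177 to 10634 with a library left out. With the replicate block 10203 genes were called, 39 of the other pathway genes higher and 26 lower. The numbers were not taken to pair the libraries. Same-numbered libraries had correlations of -0.138 to -0.011, and differently numbered ones -0.119 to 0.151. No shared signal was seen, but this cannot show whether the libraries were set up in pairs. Depth limits Uox, with 3 counts a group, and the size of the Upp1 and Urah ratios, which rest on 4 and 19 PBS counts.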
